A study of Mus musculus with 15 samples.

Results

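Gdf15, Aldh4a1, Serpina3n, Adamts4, Slc38a2, Unc5cl, Bbs2, Naxe and Fxyd1 are 9 mouse genes with a region of p53 chromatin immunoprecipitation signal in liver that the spleen and thymus lists lack. They were chosen from the deposited region lists themselves, for a liver-alone region that overlaps the gene or lies at most 20 kb away. Of 21887 protein-coding genes of the RefSeq annotation (mm10), 2284 (10.4%) have such a region, so the 9 are a small selection of these. Every region within that window was then counted, which gave 11 of the 4137 distinct regions of the series. The name under which the genes were gathered, stress and acute-phase genes, plainly describes only some of them. Serpina3n is an acute-phase gene, and Gdf15 and Slc38a2 respond to cellular stress. The others are described below by other roles, among them Aldh4a1, whose human counterpart is a known p53 target. Because the lists chose the genes, their presence in liver and absence elsewhere is a description, and no test was made on it.

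The study immunoprecipitated p53, as the series title states, from 3 organs of wild-type mice, liver, spleen and thymus, and sequenced the recovered DNA. Each organ has 2 libraries from untreated mice, 2 from mice 3 h after X-rays at a dose of 2 Gy, and 1 input library of chromatin that was not immunoprecipitated. No age, strain or antibody is named in the labels. The processed data are 1 region list per organ, which the labels attach to all 5 libraries of that organ and whose name refers to irradiated samples and to IgG, a control antibody. With 1 list per organ there is no spread between replicates, no comparison of irradiated with untreated mice and no read depth, and each organ is a mixture of cell types that the lists do not separate. The lists hold 3872 regions in liver, 2604 in spleen and 2405 in thymus, so the liver list is the longest. How far the longer liver list accounts for liver-alone regions cannot be told apart from a difference between the organs.

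The transcription factor p53 is stabilised after DNA damage and binds DNA as a tetramer, at pairs of half-sites whose central letters are most often CATG. It raises the expression of genes for cell cycle arrest, apoptosis, metabolism and secreted stress signals. Acute-phase proteins are secreted by hepatocytes during inflammation, mainly under STAT3, C/EBP and NF-kB, while shortage of amino acids or misfolded proteins acts through ATF4 in the integrated stress response.

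Promoter sequence was at hand for 8 of the 9 genes (RefSeq, GRCm38.p6, the assembly of mm10), and 3 of the 9 liver-alone regions reached into a promoter window of 250 bases before to 50 bases after a start site. These were the regions at Naxe, at Bbs2 and, beside Serpina3n, at the start of the noncoding gene Gm40561. They are shown because they give the letters under 3 of the highest-ranked liver-alone regions. Each is written 5′ to 3′ on the strand of its gene, with the bases inside the region in capitals; for Naxe and Bbs2 the stretch ends at the last base before the start site.
Naxe, chr3:88058496-88058745, minus strand: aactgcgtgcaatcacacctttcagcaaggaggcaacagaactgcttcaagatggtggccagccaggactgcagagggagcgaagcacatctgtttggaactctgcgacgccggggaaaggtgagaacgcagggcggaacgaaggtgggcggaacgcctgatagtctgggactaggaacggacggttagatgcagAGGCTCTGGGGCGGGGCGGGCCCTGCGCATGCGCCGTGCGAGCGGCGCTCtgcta
Bbs2, chr8:94098510-94098759, minus strand: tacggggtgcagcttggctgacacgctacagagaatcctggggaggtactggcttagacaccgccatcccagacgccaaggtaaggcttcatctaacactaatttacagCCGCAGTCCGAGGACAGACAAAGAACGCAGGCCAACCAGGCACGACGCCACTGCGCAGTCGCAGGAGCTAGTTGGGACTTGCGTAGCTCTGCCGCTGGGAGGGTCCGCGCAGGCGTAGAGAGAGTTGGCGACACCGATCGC
Gm40561, chr12:104404119-104404418, minus strand: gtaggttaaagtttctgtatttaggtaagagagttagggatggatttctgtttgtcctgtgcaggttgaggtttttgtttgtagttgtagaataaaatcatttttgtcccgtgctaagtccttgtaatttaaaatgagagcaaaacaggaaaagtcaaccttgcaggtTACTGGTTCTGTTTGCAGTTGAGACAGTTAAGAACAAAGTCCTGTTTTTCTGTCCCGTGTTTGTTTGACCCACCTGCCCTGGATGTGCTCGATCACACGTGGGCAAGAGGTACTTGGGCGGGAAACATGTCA

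The Naxe region is 50 bp wide and lies wholly inside this stretch. Its letters are 82% G or C, with 8 CG pairs. They hold the 10-base NRF1 palindrome GCGCATGCGC, recognised by nuclear respiratory factor 1, an activator of housekeeping promoters. The palindrome begins 31 bases before the Naxe start site. Just before it are 2 overlapping GC boxes (GGGCGG, bound by SP and KLF factors), 47 and 42 bases before the start site. The only CATG in the Naxe window is the centre of the NRF1 palindrome, and no p53 half-site was found. The 141 bases of the Bbs2 region shown here are 65.2% G or C with 15 CG pairs. They hold no CATG, no GC box and no p53 half-site free of mismatches. An ETS match (CCGGAAG on the opposite strand) lies in the same region just after the Bbs2 start site. The 132 bases of the region at Gm40561 are 49.2% G or C with 4 CG pairs. Near their 3′ end they hold 1 GC box and 1 CATG. The letters around this CATG, AAACATGTCA, depart from the consensus half-site only at the last base. Half-sites with a mismatch were not counted in any of these stretches. The parts of the Bbs2 and Gm40561 regions outside the promoter windows were not read.

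The consensus p53 half-site, searched on both strands with no mismatch allowed, was found in the promoter window of 1 of these genes, Serpina3n. The half-site, AGACTTGTCC, begins 214 bases before the Serpina3n start site, shown in capitals on the next line, and no region covers it: the nearest region ends 2396 bp before the gene.
Serpina3n, chr12:104406458-104406707, plus strand: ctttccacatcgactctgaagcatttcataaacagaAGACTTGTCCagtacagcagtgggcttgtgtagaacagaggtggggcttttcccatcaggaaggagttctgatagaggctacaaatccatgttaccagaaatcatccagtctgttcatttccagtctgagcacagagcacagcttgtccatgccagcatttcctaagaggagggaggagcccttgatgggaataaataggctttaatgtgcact

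Over all 32851 RefSeq promoter windows of this length, 8.36% held a p53 half-site. Among the 1040 windows touched by a liver-alone region the share was 5.67%, and among the 247 touched by a region of all 3 lists it was 16.2%. The 9 windows of these genes (Gdf15 has 2) held it in 1 case. The NRF1 palindrome of Naxe was in 0.971% of all windows, in 10.6% of those touched by liver-alone regions and in 12.1% of those touched by regions of all 3 lists. A GC box was in 35.7%, 79.3% and 67.6%, and the ETS letters in 8.86%, 25.4% and 19.4%. Median base composition was 52.7% G or C over all windows, 66.7% in those touched by liver-alone regions and 64.7% in those touched by regions of all 3 lists, and these motifs differ in their own G and C content. A match describes the letters only. A window counted as touched from 1 shared base on, and a match could lie anywhere in it, also outside the region. The windows stand for only part of each class: 86.4% of liver-alone regions had a midpoint within 1 kb of a start site. Of the regions of all 3 lists, 17.4% did.

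**Figure D1:**
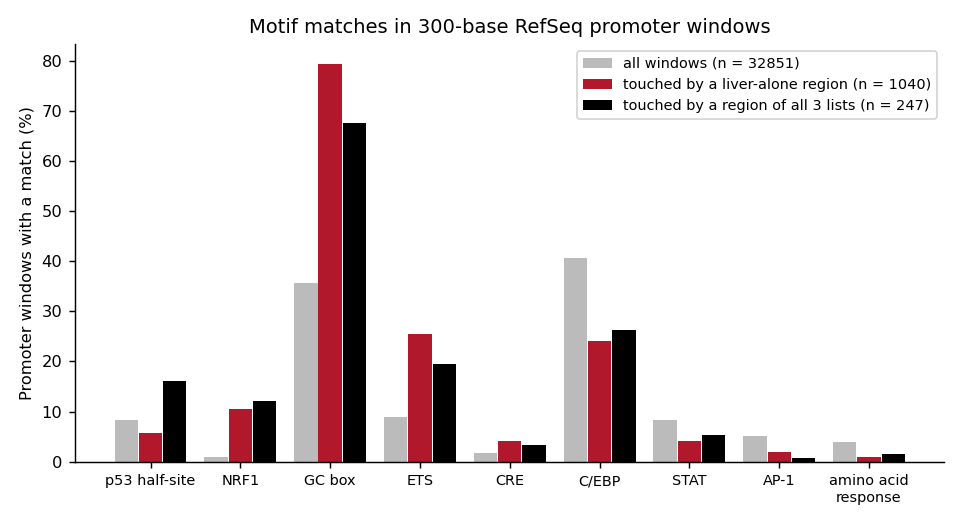
Share of RefSeq promoter windows (300 bases each) that hold each motif at least once on either strand, in percent, for all 32851 windows, the 1040 touched by a liver-alone region and the 247 touched by a region of all 3 lists. The p53 half-site is at 5.67% in the liver-alone group and 16.2% in the group of all 3 lists, while NRF1 (10.6% and 12.1%) lies above the 0.971% of all windows in both. A match may lie outside the region that touches its window.

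Elements of the stress and acute-phase pathways were also sought. None of the 9 windows of these genes held the core of the ATF4 amino acid response element (TGATGNAA, in 3.97% of all windows), a full cyclic AMP response element (TGACGTCA, 1.79%), an AP-1 element (TGANTCA with N as C or G, 5.20%) or a STAT palindrome (TTCNNNGAA, 8.30%). Bases outside the windows, introns included, were not searched, so elements there would be missed. Of these windows, only those of Naxe and Bbs2 were touched by a region. A C/EBP match (TTNCNNAA, 40.7% of all windows) was in 4 of the 9 windows, those of Naxe, Fxyd1, Serpina3n and 1 of the pair of Gdf15. The CCAAT box (37.4% of all windows) was in 3, including the Aldh4a1 window, which held 3 copies. Slc38a2 had the window richest in G and C, at 73% with 41 CG pairs, and Serpina3n the poorest, at 48.7% with 3.

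Each of the 9 genes had exactly 1 liver-alone region within 20 kb, against 10.4% of all coding genes with any. For 7 of the genes it was the only region of any list in the window, a pattern found for 8.28% of coding genes. Gdf15 and Unc5cl also had 1 region that was in all 3 lists, so 2 of the 9 had a spleen region and the same 2 a thymus region (12.8% and 11.6% of coding genes; 14.7% for either). A liver region of any kind lay within 20 kb of 22.3% of coding genes. Of all distinct regions, 30.3% were in the liver list alone. The rule fixed the liver counts, so nothing is read from them.

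Scores are the authors' own values per region, on a scale the sources used here do not give, and are used only as ranks within a list: a percentile of 95 means that about 95% of the regions of that list score no higher. By this rank the 9 liver-alone regions fell into 2 separate sets. In 7 genes (Serpina3n, Bbs2, Adamts4, Naxe, Fxyd1, Unc5cl and Slc38a2) the percentile was between 93.8 and 96.7. At Aldh4a1 it was 24.9 and at Gdf15 5.86. The median was 94.6, against 48.4 for all 1255 liver-alone regions and 52.3 for the liver rank of the 1930 regions in all 3 lists. Since the genes were chosen from these lists, the split and the median describe that choice and are no result about the genes.

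The high set was taken from the very top of the liver-alone class. Those 7 regions are among the 9 highest-scoring liver-alone regions. The other 2 lie far from coding genes, at ranks 1 and 4 of that class: one on chromosome 12 (27941201 to 27941750, percentile 96.9), 496 kb from Dcdc2c, and one on chromosome 1 (35663001 to 35663250, percentile 95.5), 405 kb from Hs6st1. Just below Slc38a2, rank 9 with a score of 31.29, came the region at the zinc finger gene Zfp324, rank 10 with 31.26. Liver-alone regions seldom ranked this high: 38 of 1255, or 3.03%, were above the 90th percentile of the liver list, against 15.4% of the regions of all 3 lists. No liver-alone region passed 96.9, while regions of all 3 lists reached 99.99.

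**Figure D2:**
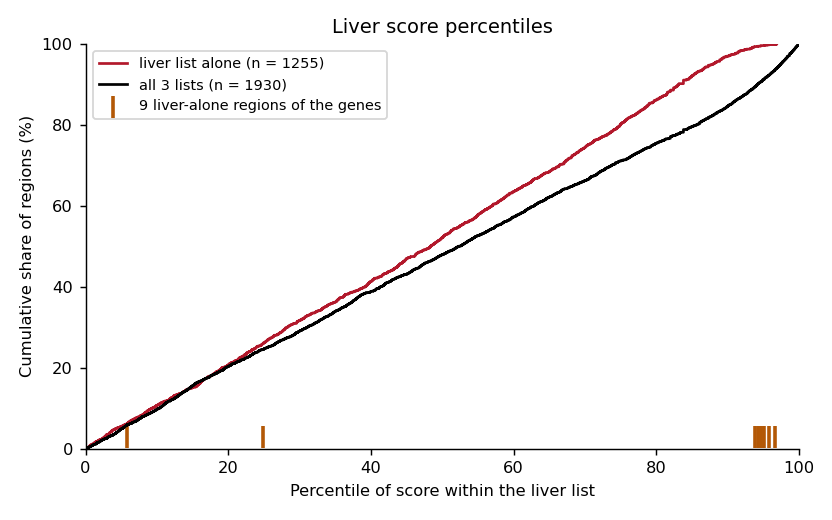
Cumulative share of regions (percent, vertical) by their score percentile within the liver list (horizontal), for the 1255 liver-alone regions and the 1930 regions of all 3 lists, with ticks for the 9 liver-alone regions of the genes. Of the 9 ticks, 7 sit between 93.8 and 96.7, near the upper end of the liver-alone curve, and 2 at 5.86 and 24.9.

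Gdf15 encodes growth differentiation factor 15, a secreted hormone of the TGF-beta family that signals stress to the hindbrain through its receptor GFRAL and is a known target of p53. Its liver-alone region was the weakest of the 9. It spanned 50 bp inside the gene (chromosome 8, 70629901 to 70629950) with a score of 9.63, at percentile 5.86. Its midpoint lay 2.17 kb past the nearest Gdf15 start site, toward the other end of this gene of 3.08 kb. The noncoding gene Gm34154 was within 5 kb, 2613 bp away. The second region in the window ranked far higher: 650 bp wide, inside the neighbouring gene Pgpep1 (70649401 to 70650050), which encodes a peptidase that removes pyroglutamate from peptides. It lay 16.9 kb outside Gdf15, and was in all 3 lists. Its percentile was 99.7 in liver (score 44.2), 97.6 in spleen (score 32.1) and 64.0 in thymus (score 19.3). Gdf15 thus had a low-ranked region of its own in liver alone and one nearby that all 3 organs shared. The shared one ranked high in liver and spleen and lower in thymus.

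Aldh4a1 encodes the mitochondrial enzyme that turns the proline breakdown product pyrroline-5-carboxylate into glutamate, and its human counterpart is a known p53 target. Its region spanned 150 bp just inside the gene (chromosome 4, 139623001 to 139623150), with the midpoint 182 bp past the start site and a score of 16.1. Iffo2, an intermediate filament family gene, was 2.62 kb away on the other side of the start. No spleen or thymus region lay closer than 242 kb, where both lists held the same region at percentiles of 84.2 in spleen and 54.9 in thymus.

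Serpina3n encodes a secreted inhibitor of serine proteases, an acute-phase relative of human alpha-1-antichymotrypsin. The region beside it had the highest rank of the 9 (chromosome 12, 104404001 to 104404250; 250 bp, score 33.9, percentile 96.7). It lay 2396 bp before the gene. It covered the start of Gm40561, 43 bp from its midpoint, which is transcribed away from Serpina3n. Serpina3m, another gene of the cluster, was 9.74 kb away. Spleen and thymus shared their nearest region, 585 kb away.

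Adamts4 encodes an aggrecan-cleaving protease of the extracellular matrix. Its region lay 734 bp beyond the higher-coordinate end of the gene (chromosome 1, 171263001 to 171263250; 250 bp, score 32.1, percentile 95.2). No other annotated gene was within 5 kb, and the next coding gene, B4galt3, was 7.08 kb away. The nearest spleen region was 25.7 kb away and the nearest thymus region 288 kb.

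Slc38a2 encodes SNAT2, a sodium-coupled importer of neutral amino acids that cells raise when amino acids run short. The region assigned to it was the widest of the 9 and the farthest from its gene (chromosome 15, 96709601 to 96710050; 450 bp, score 31.3, percentile 93.8). It lay 9.87 kb outside the gene and 10.1 kb before the start site, with no other annotated gene within 5 kb and the next coding gene, Slc38a1, 66.2 kb away. On the other side of the gene, 28.3 kb away and so outside the window, was a region that spleen and thymus shared and liver lacked (96658801 to 96659050; percentiles 45.8 and 76.9). That region was nearer to Slc38a1, at 15.4 kb. The Slc38a1 and Slc38a2 locus therefore held 1 region of liver alone and 1 of the lymphoid organs alone, on opposite sides of Slc38a2.

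Unc5cl encodes a death-domain protein related to the UNC5 netrin receptors. In this annotation it spans 85.6 kb and held 2 regions. The liver-alone one lay 30.2 kb past the start site (chromosome 17, 48485001 to 48485250; 250 bp, score 31.5, percentile 94.2). The other, 68.9 kb past it (48523701 to 48523950), was in all 3 lists. Its ranks ran the other way: the percentile was 23.2 in liver, while spleen had 84.6 and thymus 89.9. No other gene was within 5 kb of either region, and the next coding gene, Tspo2, was 33.4 kb from the first. The pair shows a region high in liver and missing elsewhere beside one that is high in the lymphoid organs and low in liver, within 1 gene.

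Bbs2 encodes a subunit of the BBSome, the complex that carries membrane proteins into and out of cilia. Its region crossed the start site of the promoter table, which lies inside the gene as annotated (chromosome 8, 94098401 to 94098650; 250 bp, score 32.5, percentile 95.8), with the midpoint 16.5 bp before it. The noncoding gene Gm39226 was 892 bp away and the next coding gene, Ogfod1, 30.5 kb away. The nearest spleen and thymus region was 469 kb away.

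Naxe encodes the epimerase that repairs damaged, hydrated NADH and NADPH. Its region, the one with the NRF1 palindrome, crossed the annotated gene end (chromosome 3, 88058501 to 88058550), with the midpoint 30.5 bp before the start site. Gpatch4 was 2.51 kb away. The nearest spleen region lay 291 kb away and the nearest thymus region 564 kb.

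Fxyd1 encodes phospholemman, a small membrane protein that regulates the sodium pump. Its region lay 128 bp outside the gene (chromosome 7, 31056001 to 31056050) and 1.17 kb before the start site. It fell inside the noncoding gene Gm38984, with Lgi4 2.86 kb and Fxyd7 4.55 kb away. The Naxe and Fxyd1 regions were both 50 bp wide and had the same score of 31.9, at percentile 94.6, a value that 8 liver regions between 50 and 450 bp wide shared. Ties were common, since 49.1% of liver regions had a score that at least 1 other liver region also had. Of the 442 liver-alone regions of this narrowest width, 8 ranked above the 90th percentile, and the median of the 442 was 37.8. The nearest regions of the lymphoid organs were 217 kb from Fxyd1 in spleen and 221 kb in thymus.

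**Figure D3:**
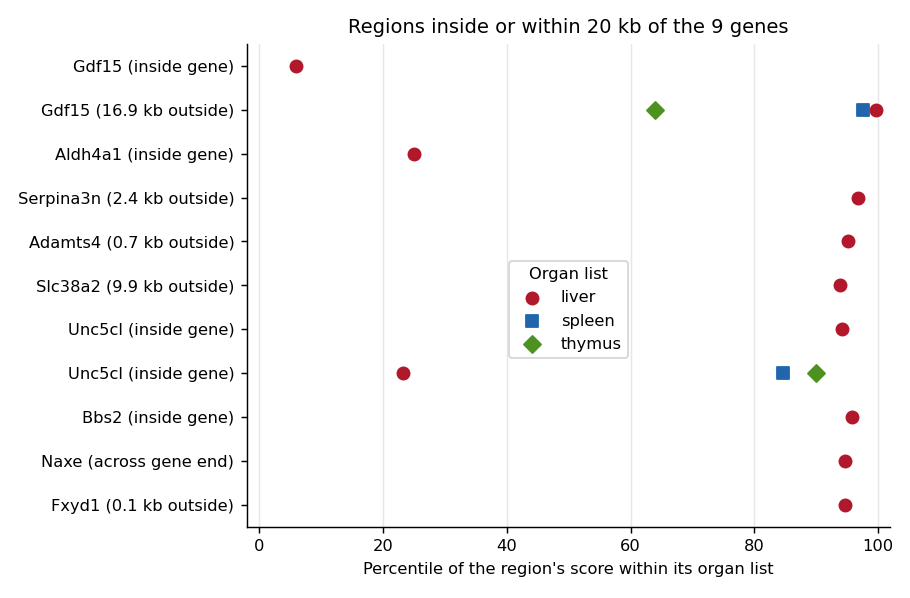
Score percentile within each organ's list (horizontal, 0 to 100) for the 11 regions inside or within 20 kb of the 9 genes; each row is a region, and a missing marker means that the list does not hold it. Spleen and thymus markers appear in 2 rows, at Gdf15 (97.6 and 64.0) and Unc5cl (84.6 and 89.9).

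The place of the 9 liver-alone regions relative to start sites varied. A midpoint within 1 kb of a start site (of either gene end where the promoter table lacks a gene, as for Adamts4) was found for 5 of the 9, those at Aldh4a1, Serpina3n, Adamts4, Bbs2 and Naxe. The share was 86.4% of all liver-alone regions and 17.4% of regions in all 3 lists. For Serpina3n the start site is that of Gm40561, and for Adamts4 the gene end may be either its start or its finish. With coding genes alone the count was 4. The regions at Unc5cl and Slc38a2 were 30.2 and 10.1 kb from any start site. Widths ran from 50 to 450 bp, with a median of 250 bp, against 150 bp for all liver-alone regions and 250 bp for regions of all 3 lists.

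**Figure D4:**
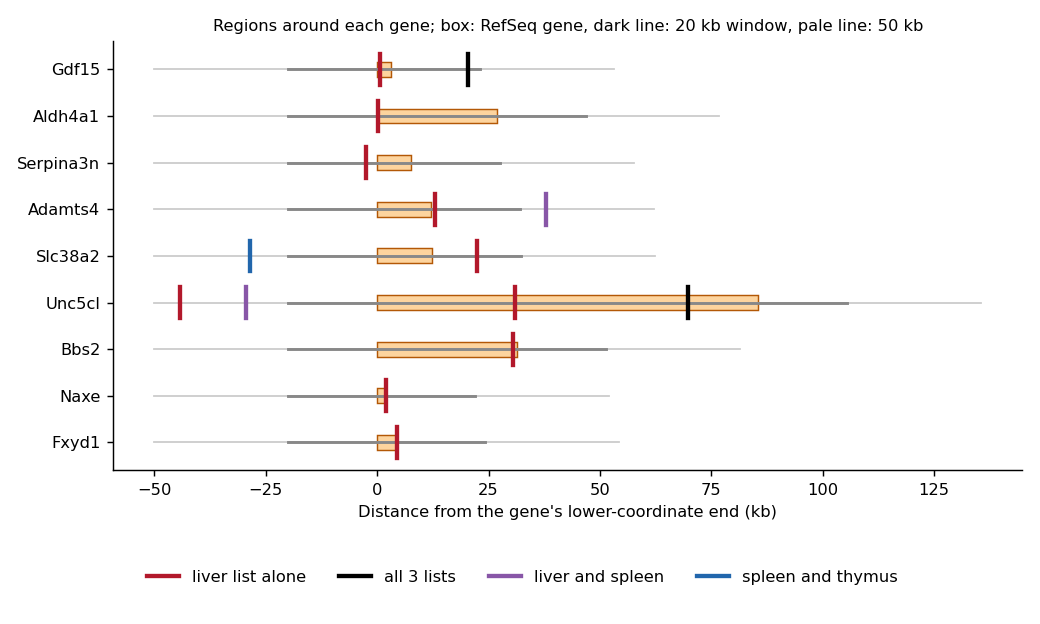
Regions around each of the 9 genes, in kb from the gene's lower-coordinate end (horizontal), with the RefSeq gene as a box, the 20 kb window as a dark line and 50 kb as a pale line. Vertical marks are regions, coloured by the lists that hold them: each gene has 1 liver-alone region in its window, Gdf15 and Unc5cl also have 1 of all 3 lists, and 4 more regions lie between 20 and 50 kb at Adamts4, Slc38a2 and Unc5cl.

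The window of 20 kb set the count of 11. The farthest region inside it was that in Pgpep1, 16.9 kb from Gdf15. The nearest one outside was 25.7 kb from Adamts4, a liver and spleen region of 50 bp between Usp21 and Ufc1 (percentiles 24.5 and 6.11).

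Genes with the most similar pattern were sought among 1806 other coding genes whose regions within 20 kb were all of the liver list alone, by the closeness of their best liver percentile to the median of 94.6. The closest were 6 genes tied at 94.6 (Fxyd3, Fxyd5, Fxyd7, Lgi4, Gpatch4 and Ttc24), each through the Naxe or the Fxyd1 region itself. The next with a region of their own were Zfp324 and Zfp446, which share 1 region at 93.7, and the deubiquitinase gene Usp10 at 93.5.

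The other genes of the same pathways and families, taken as 12 lists, were counted next. With the 9 genes left out, 16 of 176 genes (9.09%) had a liver-alone region within 20 kb, 32 (18.2%) any liver region and 21 (11.9%) a spleen or thymus region, beside 10.4%, 22.3% and 14.7% of all coding genes. Among the 16, Serpina3m, Fxyd3, Fxyd5 and Fxyd7 were counted only through the Serpina3n or the Fxyd1 region. The liver shares therefore partly repeat the choice of the 9 genes.

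Acute-phase proteins had a region in 2 of 32 cases, both of liver alone, beside 10.4% of all coding genes with a liver-alone region. Besides Serpina3n it was Hamp, which encodes the iron hormone hepcidin, with a region 13.3 kb away at percentile 43.7. The serum amyloid, haptoglobin, fibrinogen and metallothionein genes of the list had none. Upstream of them, 4 of 16 genes of interleukin 6 and interleukin 1 signalling had a liver region, beside 22.3% of all coding genes. The adaptor gene Myd88 had one in all 3 lists, 1.28 kb away, at percentiles of 94.9, 54.6 and 28.0 in liver, spleen and thymus, the order kept from here on. Rela, an NF-kB subunit gene, had 2 of liver alone at 55.0 and 68.9. The region 14.2 kb from Il6 ranked at 23.1, 86.8 and 93.7, and that 7.54 kb from Il1b at 57.8, 72.5 and 24.0. Of the Serpina3 cluster, 2 of 11 genes had a region, of liver alone, beside 10.4% of all coding genes with a liver-alone region. Both had it through the 1 region between Serpina3n and Serpina3m.

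In the integrated stress response, 10 of 27 genes had a liver region, 5 of them a liver-alone one, Gdf15 and Slc38a2 included. With these 2 left out it was 8 of 25 and 3 of 25, beside 22.3% and 10.4% of all coding genes. Vldlr, a lipoprotein receptor gene, had 2 regions of all 3 lists, the higher at 93.9, 29.6 and 25.7. Ddit4, which encodes an inhibitor of mTORC1, also had 2, the higher at 82.6, 80.0 and 79.3. Atf5, a transcription factor gene, had 1 of liver alone at 80.9. Slc3a2, the partner chain of several amino acid exchangers, had 1 of liver and spleen at 78.0 and 11.5. Of the enzymes of proline, hydroxyproline and glutamate, 5 of 15 had a liver region, or 4 of 14 with Aldh4a1 left out, beside 22.3% of all coding genes. Pycr1, which makes proline, had one of liver and thymus at 84.9 and 41.2 and one of liver alone at 10.6, and Glud1, glutamate dehydrogenase, one of all 3 lists at 79.6, 41.9 and 21.2 and one of liver alone at 68.2. Pycrl, matched for Pycr3, had one of liver alone at 64.1.

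In the families of the other genes, liver-alone regions ranged from none in the ADAMTS, SLC38, UNC5 and netrin, and NAD(P)HX repair lists to 4 of 13 in the FXYD and sodium pump list, the 9 genes left out, beside 10.4% of all coding genes. In the GDF15 list it was 3 of 19: Gdf15 itself, Gdf5 at 62.7 and Inhbc at 25.7, while Gdf3 had regions of other kinds, the liver one at 11.1. Among 20 ADAMTS and inhibitor genes, Adamts4 was joined by Adamts2, whose region was in all 3 lists at 83.8, 94.5 and 94.4. Of 11 SLC38 transporters, Slc38a6 (88.9, 85.4 and 97.6) and Slc38a11 (45.4, 91.5 and 58.5) had regions of all 3 lists and Slc38a1 the one that liver lacked. Ntn4 was the other gene of 9 in the UNC5 and netrin list with a region (59.8, 44.9 and 61.6). In the BBSome list, 4 of 12 genes had a liver region, or 3 of 11 with Bbs2 left out, beside 22.3% of all coding genes. Besides Bbs2, Bbs7 had one of liver alone at 50.8 and Mkks one of liver and spleen at 70.1 and 22.7. Bbs9 had regions of all 3 lists, the higher at 15.1 in liver. Naxd, the dehydratase that works with Naxe, had none. The FXYD and sodium pump list had 5 of 14, but 4 of these share the Fxyd1 region; the other was Atp1b2, with a liver-alone region at 48.4 and one of all 3 lists at 24.8, 41.7 and 14.8.

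**Figure D5:**
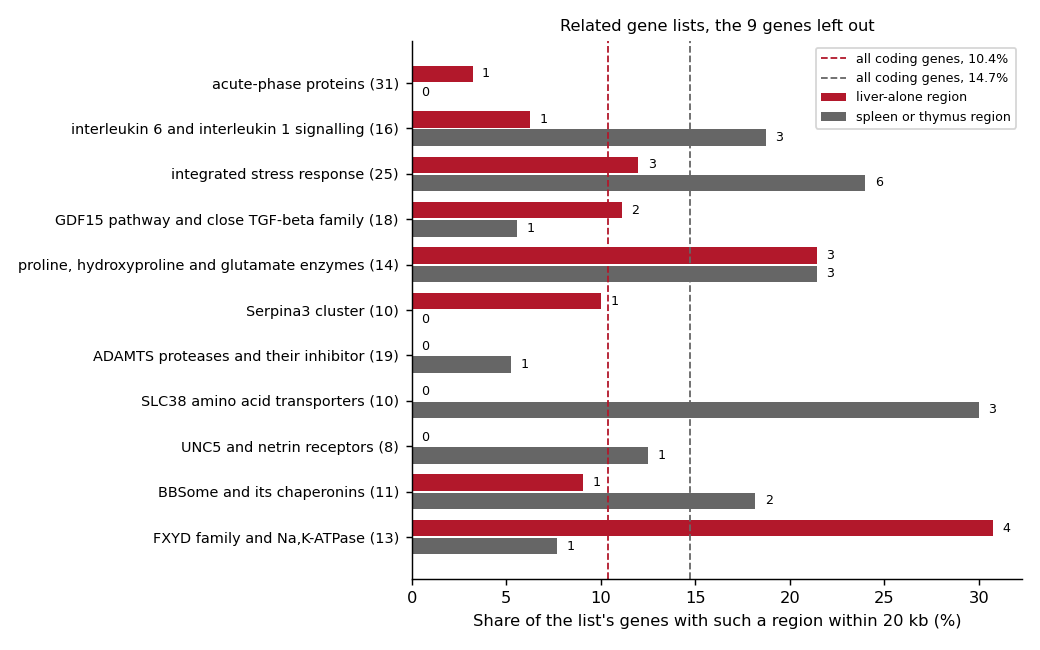
Share of genes in each related list (percent, horizontal) with a liver-alone region or with a spleen or thymus region within 20 kb, the 9 genes left out, the number of genes remaining in brackets and the list that leaves Naxd alone not drawn; numbers at the bars are gene counts and dashed lines the shares of all coding genes, 10.4% and 14.7%. Acute-phase proteins have 1 of 31 and 0 of 31, and 3 of the 4 liver-alone counts of the FXYD list come from the Fxyd1 region. The 1 liver-alone count of the Serpina3 cluster comes from the Serpina3n region.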

How the data were processed

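The deposited data are 3 region lists, 1 per organ, without header. Coordinates are on mm10, per the submitters' processing notes. An aligner, a region caller, its controls and any pooling of libraries were not given in the sources used here. The authors deposited a score per region with no unit, and here it served only as a rank percentile within a list, ties averaged.

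Regions with the same coordinates in several lists were joined, and those in the liver list and no other are called liver-alone. Genes came from RefSeq (GRCm38.p6, 49943 genes, 21887 coding), and distances run between nearest ends. Start sites and sequences came from 32851 RefSeq promoter windows of 27025 genes; genes without a window were represented by both ends. Motifs were searched on both strands. Of the genes in the 12 lists all matched, 1 through a synonym. Code was tested on simulated data (Python 3.11.15, pandas 2.3.3). The genes, lists and motifs were chosen with earlier results of these data known. Named are the 9 genes, every gene within 5 kb of their regions, at most 6 genes per list by liver percentile, and the 5 nearest in pattern with ties. The values of 1 listed gene are not reported here. No test was run: 1 list per organ has no replicates, and the lists chose the genes. Other windows, shorter lists, nearest-gene assignment, tie ranks and start-site distances were tried.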

Additional observations from a re-analysis of the deposited data

How the results depend on the processing

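Of 33 recomputed values, 29 stayed near the reported ones. For counts the tolerance was wide. It let the count of 11 regions run from 9 to 15, and that of 5 regions near a start site from 4 to 6. The median percentile, 94.4 to 94.6 over the settings, was judged by a 95% binomial interval over the 3872 liver regions. That interval treats regions as independent, and they are not replicates. The choice of genes fixed the liver counts at the main setting. The 4 that moved all concern the number of the 9 genes with a spleen or thymus region, reported as 2. It was 1 with windows of 5 kb and of 10 kb and 1 when a region belonged only to the nearest coding gene, since the region in Pgpep1 then left Gdf15. With a window of 50 kb it was 4, as Adamts4 and Slc38a2 joined. Genes with a liver region numbered 8 or 9 under each setting tried, and liver-alone regions 7 to 10. In the upper 50% of each list, and with all lists cut to the 2405 regions of the shortest, the regions inside Gdf15 and Aldh4a1 dropped out. Without per-library values the effect of depth on these lists was not tested.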

Other observations

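Between 20 and 50 kb from the genes, 4 more regions were listed. One, of liver alone, overlapped the promoter windows of both Nfya, a subunit of the CCAAT-binding factor NF-Y, and Oard1, which encodes an ADP-ribose hydrolase (chromosome 17, 48409801 to 48410150; percentile 70.4). It lay 44.0 kb from Unc5cl. A region inside Apobec2, 29.5 kb from Unc5cl, was in the liver list at percentile 1.14 and in the spleen list at 40.3. The region between Usp21, a histone deubiquitinase gene, and Ufc1, a gene of the UFM1 conjugation pathway, overlapped the Usp21 promoter window. The fourth was the region of spleen and thymus near Slc38a1.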
